A study of Mus musculus with 40 samples.

Results

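The genes described here are 36 members of the sterol and fatty acid synthesis programme, taken by symbol from a list of sterol regulatory element-binding protein (SREBP) pathway and lipid synthesis genes and matched to the Ensembl identifiers of the deposited gene table, which holds 51789 genes. They fall into 5 regulators (Srebf1, Srebf2, Scap, Insig1 and Insig2), 7 genes of the mevalonate arm (Acat2, Hmgcs1, Mvk, Pmvk, Mvd, Idi1 and Fdps) and 11 genes that lead from squalene to cholesterol (Fdft1, Sqle, Lss, Cyp51, Tm7sf2, Msmo1, Nsdhl, Hsd17b7, Ebp, Sc5d and Dhcr7). The others are 1 sterol carrier (Stard4), 9 genes of fatty acid synthesis and desaturation (Acss2, Acly, Acaca, Fasn, Elovl6, Scd1, Scd2, Fads1 and Fads2) and 3 targets of the liver X receptors, or LXR (Abca1, Abcg1 and Mylip). In every comparison 35 of the 36 passed the filter on low counts. Abcg1, a sterol exporter, did not, with 0 to 4 counts in a library.

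SREBPs are transcription factors made as membrane proteins of the endoplasmic reticulum. When sterols are low, the escort protein Scap carries them to the Golgi, where proteases release the active factor. When sterols are high, the Insig proteins hold Scap back. Insig1, the enzymes of the mevalonate arm and those of fatty acid synthesis are textbook SREBP targets, and oxysterols activate LXR, which raises Srebf1 and genes of sterol efflux such as Abca1. Bmal1, the clock factor perturbed in these cells, binds DNA as a partner of Clock at the E-box CACGTG.

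RNA was measured by 3′ mRNA-seq in 40 libraries of cultured mouse melanoma cells, 20 groups with 2 replicates each, so a difference is set against the spread of few libraries. B16-F10 is a pigmented line, from which a Bmal1 knockout clone (KO) and a control clone (Ctrl) were compared. YUMM1.7 and YUMM2.1 are lines from genetically engineered Braf-mutant melanomas, and aC3 is 1 Bmal1-null clone made from YUMM2.1 by CRISPR. YUMM1.7, YUMM2.1 and aC3 each carried the empty vector (EV), wild-type Bmal1 (WT) or dHLH, a Bmal1 without its DNA-binding helix-loop-helix domain, all expressed constitutively from a lentivirus in cells sorted for GFP. The 3 YUMM2.1 populations further received a control hairpin (shNC) or 1 of 2 hairpins against Myh9, a non-muscle myosin heavy chain (shMyh9#2 and shMyh9#4), with puromycin selection. No group had an age, a dose or a time. All libraries of a knockout come from 1 clone, so genotype and clone cannot be told apart.

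Libraries held 3643332 to 22970049 counts, with a median of 10021164.5, and the shallowest was YUMM2.1-dHLH shMyh9#4 replicate 1. Myh9 was at 665 to 994 CPM (counts scaled to library size by TMM over all 40 libraries) with shNC, 229 to 291 with shMyh9#2 and 466 to 679 with shMyh9#4. With shNC it was at 703 and 665 CPM in EV cells, 994 and 949 in WT cells and 908 and 877 in dHLH cells. With shMyh9#4 it was at 492 and 466, 538 and 477, and 679 and 636 CPM in the same order. Arntl, the gene of Bmal1, had 326 and 240 counts in B16-F10 KO and 319 and 221 in Ctrl. In YUMM2.1 without a hairpin it was at 15.9 and 13.9 CPM with EV, 13.9 and 18.3 with WT and 51.1 and 35.4 with dHLH. In aC3 it was at 33.1 and 30.5 CPM with EV, 18.2 and 17.5 with WT and 45.4 and 31.8 with dHLH. In YUMM1.7 it was at 8.47 and 8.61, 14.7 and 12.5, and 14.7 and 20.5 CPM in the same order. A 3′ tag need not include the edited or the introduced sequence and so does not check the genotype. B16-F10 held all 7 listed melanocytic markers. In the YUMM and aC3 libraries Mlana and Tyrp1 were at 0, and Pmel, Tyr and Dct reached at most 1.90 CPM. Sox10 was at 367 to 633 CPM in B16-F10, 441 to 610 in aC3 and 66.3 to 541 in YUMM2.1 without a hairpin. With a hairpin Sox10 was at 12.3 to 334 CPM, and in YUMM1.7 at most at 1.52. Mitf was at 790 to 992 CPM in B16-F10 and at 10.4 to 26.8 in the other libraries. Immune and epithelial markers were at or near 0 throughout. Of 3 endothelial markers, Kdr stayed under 1 CPM, Cdh5 was at 0 in B16-F10 and reached 19.9 CPM in the hairpin groups, and Pecam1 was at 3.70 to 13.2 CPM over all libraries. Within YUMM2.1 without a hairpin, EV replicate 1 was closest to WT replicate 1 (r = 0.990 across genes) and EV replicate 2 to WT replicate 2 (r = 0.989), while the 2 EV libraries had r = 0.963. Same-numbered libraries of these 3 groups deviated from their group means together in all 3 pairs of groups (r = 0.329 to 0.673 across genes), and whether equal numbers share an origin was not tested. Comparisons that rest on EV replicate 2 or WT replicate 1 are therefore also given with both of these libraries left out and with their labels exchanged. The 2 B16-F10 KO libraries stood furthest apart of all pairs, with an SD of their log2 ratio of 0.714 across genes against 0.333 to 0.588 in the other groups.

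The promoter sequences show where the E-box bound by Bmal1 and the sterol regulatory element bound by SREBP occur near these genes. RefSeq promoter windows (GRCm38.p6, 250 bases before to 50 after a start) were found for 28 of the 36 members, some with more than 1 window. CACGTG, which reads the same on both strands, was present in a window of 6 of them. Counted by window, it was in 7 of the 36 windows of these members, against 7.15% of all 32851 windows. These 6 are Insig1, Dhcr7, Sc5d, Hsd17b7, Abca1 and Scap, and their E-boxes are shown in capitals with 10 bases on each side, read along the gene.
Insig1 (chr5:28071301-28071326, + strand): tgggtgaggtCACGTGgctccggtgg
Dhcr7 (chr7:143823225-143823250, + strand): ctgtgatgaaCACGTGgcaaaaagca
Sc5d (chr9:42264383-42264408, - strand): acgcggcgacCACGTGaccgccgcga
Hsd17b7 (chr1:169969333-169969358, - strand): acccttgtgtCACGTGgctccgcccc
Abca1 (chr4:53160027-53160052, - strand): gccatgtctcCACGTGctttctgctg
Scap (chr9:110333306-110333331, + strand): ccgccgggagCACGTGtggagggcgg
The Scap match lies in the transcribed part of 1 of its 2 windows and the other 5 lie 98 to 164 bases before the start. The letters TCACNCCAC, searched on both strands, were found in 1 member, Hmgcs1, and in 1.24% of all windows. The CCAAT box, the site of a common partner of SREBP, was found in 22 members. By window this was 23 of the 36 member windows, against 37.4% of all windows. The LXR repeat, 2 copies of AGGTCA with 4 bases between, was found in no member and 0.0152% of windows. The whole windows of Insig1, called in 7 of the 19 comparisons within an experiment, and of Hmgcs1 are printed with the E-box and the TCACNCCAC match in capitals.
Insig1 (chr5:28071162-28071461, + strand): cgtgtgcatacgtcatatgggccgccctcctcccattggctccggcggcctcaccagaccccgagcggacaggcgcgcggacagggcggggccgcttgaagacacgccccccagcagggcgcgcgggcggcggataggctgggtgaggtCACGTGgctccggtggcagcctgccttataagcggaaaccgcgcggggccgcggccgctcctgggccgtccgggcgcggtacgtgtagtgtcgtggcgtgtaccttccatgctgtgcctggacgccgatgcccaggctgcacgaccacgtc
Hmgcs1 (chr13:119690101-119690400, + strand): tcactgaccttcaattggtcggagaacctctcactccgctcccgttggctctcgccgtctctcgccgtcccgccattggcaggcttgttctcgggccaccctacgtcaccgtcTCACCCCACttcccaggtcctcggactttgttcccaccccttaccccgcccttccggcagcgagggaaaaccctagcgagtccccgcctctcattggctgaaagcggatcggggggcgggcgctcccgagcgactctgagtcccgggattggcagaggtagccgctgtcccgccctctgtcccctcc
A match of letters is a description of the window, and binding at these places was not measured here.

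Levels of many members differed between the cell lines, as did those of many other genes. A call here and below is a Benjamini-Hochberg adjusted p under 0.05 in edgeR's quasi-likelihood test over all genes tested. YUMM1.7-EV had 5 members higher and 11 lower than YUMM2.1-EV, against 15.3% and 16.5% of all genes called higher and lower. In either direction 45.7% of the tested members and 31.8% of all genes were called. Acss2, which makes acetyl-CoA from acetate, was at 4.1 and 2.81 CPM in the 2 YUMM1.7-EV libraries and at 39.7 and 27.4 in YUMM2.1-EV, a log2 fold change of -3.28 ± 0.27 (SE, adjusted p = 1.32e-10). All YUMM1.7 libraries, whatever their construct, stayed under 6 CPM for this gene. Pmvk, the second kinase of the mevalonate arm, was at 23.2 and 26.2 CPM against 56.8 and 53.6 (-1.16 ± 0.17, adjusted p = 2.52e-06), and Insig1 at 36.7 and 35.6 against 69.8 and 59.7 (-0.84 ± 0.13, adjusted p = 1.27e-05). In the other direction, Mvk, the first kinase, was at 31.7 and 33.5 CPM in YUMM1.7-EV and 11.9 and 15.1 in YUMM2.1-EV (1.28 ± 0.20, adjusted p = 1.06e-05). Elovl6, which lengthens palmitate, was at 72.4 and 74 against 47.1 and 38.3 CPM (0.78 ± 0.16, adjusted p = 2.92e-04). So the 2 kinases that act one after the other in the mevalonate arm differed between these EV groups in opposite directions. For Mvk this rests on YUMM2.1-EV, which had the lowest mean of the 20 groups. Mvk was at 19.3 and 19.4 CPM in YUMM2.1-WT and at 32.4 and 18.8 in YUMM1.7-WT. The count of 16 was 10 without YUMM1.7-EV replicate 2 and 10 without YUMM2.1-EV replicate 1. It was 16 with YUMM2.1-EV replicate 2 and YUMM2.1-WT replicate 1 left out and 21 with their labels exchanged. Cell line and experiment cannot be told apart in comparisons between lines, nor can fewer cells of a type and less RNA per cell in any of these bulk libraries.

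B16-F10 Ctrl against YUMM1.7-EV gave 10 members higher and 7 lower, against 22.7% and 25% of all genes. In either direction 48.6% of the tested members and 47.6% of all genes were called. The count is thus near the share over all genes and is not read as a result about the members. Insig2, the paralogue of Insig1, was at 56.1 and 54.9 CPM in B16-F10 Ctrl and 15.1 and 17.3 in YUMM1.7-EV (1.78 ± 0.15, adjusted p = 7.04e-11). Dhcr7, the last enzyme of one route to cholesterol, was at 54.7 and 53.9 against 19 and 18.9 CPM (1.52 ± 0.19, adjusted p = 9.23e-08). Mylip, a ubiquitin ligase that acts on lipoprotein receptors, was at 18.1 and 19.8 against 3.83 and 5.9 CPM (1.96 ± 0.28, adjusted p = 1.48e-06). Each of these 3 genes had its highest mean of the 20 groups in B16-F10 Ctrl. Tm7sf2, a sterol reductase, was lower, at 10.4 and 11.4 against 40.5 and 48.3 CPM (-2.02 ± 0.48, adjusted p = 9.95e-04), and Acss2 was higher, at 8.48 and 8.58 against 4.1 and 2.81 (1.30 ± 0.28, adjusted p = 2.71e-04). The summed level of the 7 melanocytic markers was 24439 and 26052 CPM in B16-F10 Ctrl and 14.2 and 14.8 in YUMM1.7-EV, and its part in these differences was not tested. The Bmal1-null clone was also set against its parent line, whose EV group had the lowest mean of Mvk of the 20 groups. Against YUMM2.1-EV, aC3-EV had 2 members higher (0.475% of all genes) and 0 lower (2%), namely Mvk at 22 and 25.9 against 11.9 and 15.1 CPM (0.83 ± 0.20, adjusted p = 0.0185) and Fdps, farnesyl diphosphate synthase, at 159.6 and 182 against 135 and 121 (0.42 ± 0.10, adjusted p = 0.0153). This count was 0 without aC3-EV replicate 2 and 1 without either YUMM2.1-EV library, and it was 0 with the labels exchanged and 1 with both libraries left out.

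**Figure D1:**
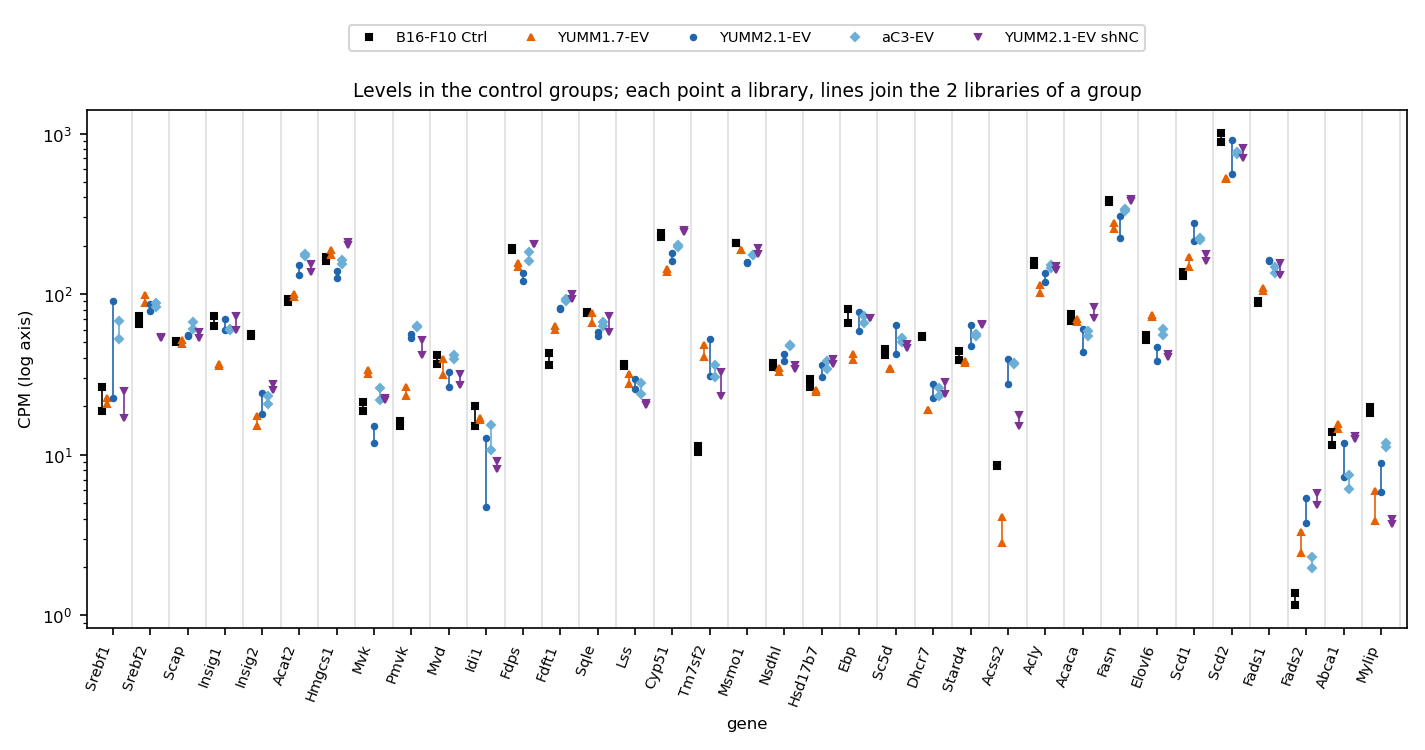
Levels of the 35 tested members in the control groups of each line, in CPM on a log axis, each point being a library and each line joining the 2 libraries of a group. Acss2 runs from 2.81 CPM in YUMM1.7-EV to 39.7 in YUMM2.1-EV, and Insig2, Dhcr7 and Mylip are highest in B16-F10 Ctrl.

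Expression of either construct in the Bmal1-null clone aC3 went with higher levels of sterol and fatty acid genes. With WT, 8 members were higher and 0 lower than with EV, against 4.92% and 6.28% of all genes. With dHLH, 14 were higher and 1 lower, against 4.79% and 6.09%. The median log2 fold change over the 35 members was 0.18 for WT and 0.25 for dHLH, whereas the median over all genes tested lay between -0.01 and 0.02 in each of the 19 comparisons made within an experiment.

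Acss2 rose most of the called members with WT. It was at 67.6 and 71.9 CPM in aC3-WT, 67 and 59.1 in aC3-dHLH and 36.9 and 37.3 in aC3-EV, so that neither construct overlapped EV. The log2 fold change was 0.91 ± 0.10 with WT (adjusted p = 1.18e-04) and 0.75 ± 0.10 with dHLH (adjusted p = 7.50e-04). Insig1, the feedback inhibitor that SREBP itself induces, was at 94.7 and 85.6 CPM with WT, 84.7 and 85.7 with dHLH and 59.4 and 60.7 with EV (0.58 ± 0.09, adjusted p = 0.00109, and 0.49 ± 0.09, adjusted p = 0.00423). Scd1, a stearoyl-CoA desaturase, was at 328 and 317 CPM with WT, 364 and 303 with dHLH and 222 and 218 with EV (0.55 ± 0.09, adjusted p = 0.00178, and 0.59 ± 0.09, adjusted p = 0.00159). All 3 genes thus moved alike with both constructs, 1 a regulator and 2 of the fatty acid arm. In the mevalonate arm, Pmvk was at 80 and 84.2 CPM with WT, 100.4 and 109 with dHLH and 62.1 and 63.1 with EV (0.39 ± 0.09, adjusted p = 0.014, and 0.73 ± 0.09, adjusted p = 4.58e-04). Mvd, the decarboxylase that follows Pmvk, was at 52.3 and 63 with dHLH and 39.2 and 41.6 with EV (0.50 ± 0.11, adjusted p = 0.0133). Tm7sf2 was at 42.6 and 57.3 with WT and 30.3 and 36.3 with EV (0.58 ± 0.18, adjusted p = 0.0483).

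By role, the fatty acid arm had 2 of 9 members higher with WT and 5 of 9 with dHLH, the mevalonate arm 2 and 3 of 7, and the steps from squalene to cholesterol 2 and 4 of 11. The remaining members called with both constructs were Hmgcs1, HMG-CoA synthase, Nsdhl, a sterol dehydrogenase, and Stard4, a cytosolic sterol carrier, each with a log2 fold change between 0.31 and 0.47. Fdft1, Msmo1, Dhcr7, Acly, Acaca and Fasn were called with dHLH, at 0.32 (Msmo1) to 0.48 (Dhcr7). The lower member was Srebf1, whose call was lost with DESeq2 and without aC3-dHLH replicate 1, aC3-dHLH replicate 2 or aC3-EV replicate 2. It was at 47.4 and 44 CPM with dHLH and 52.7 and 68.1 with EV (-0.41 ± 0.13, adjusted p = 0.048), while with WT it was at 71.4 and 62.6 (0.15 ± 0.12, adjusted p = 0.495). Of the other regulators, neither Srebf2, Scap nor Insig2 was called. WT and dHLH set against each other gave 0 members called (0.877% of all genes in either direction), with 6 at an unadjusted p under 0.05 and 1 by DESeq2, and the lowest adjusted p was 0.0501. The melanocytic markers summed to 562 and 567 CPM in aC3-WT, 626 and 564 in aC3-dHLH and 466 and 453 in aC3-EV, and the 3 endothelial markers to 12 and 12.5, 11.4 and 9.24, and 6.71 and 7.60. The part of either list was not tested. The count with WT was 3 without aC3-EV replicate 1, 3 without aC3-EV replicate 2, 4 without aC3-WT replicate 1 and 3 without aC3-WT replicate 2, and the count with dHLH was 5 and 3 without aC3-EV replicate 1 and replicate 2.

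**Figure D2:**
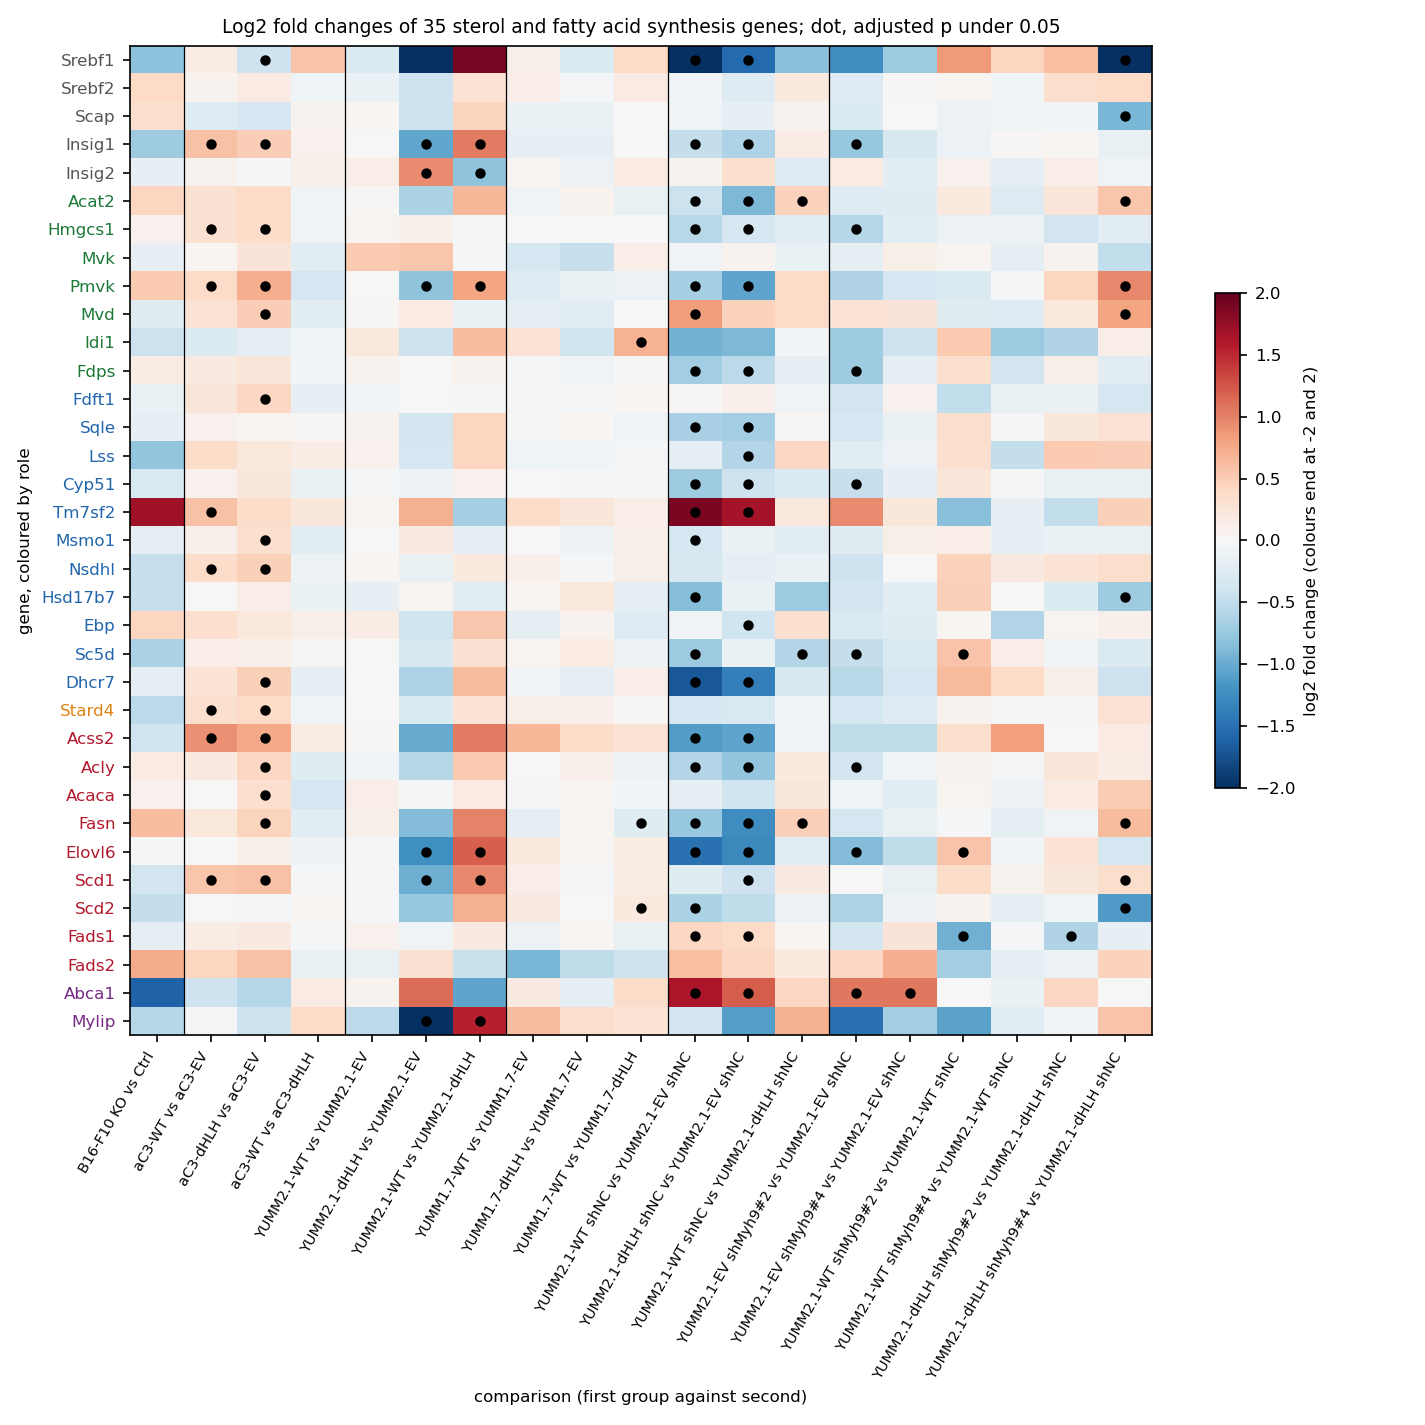
Log2 fold changes of the 35 tested members (vertical axis, coloured by role) in the 19 comparisons within an experiment (horizontal axis), with a dot where the adjusted p was under 0.05. The aC3 columns hold 8 and 15 dots, nearly all red, and the 2 columns of the constructs against EV with shNC hold 21 and 19, mostly blue.

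In YUMM2.1, whose own Bmal1 is intact, the members called lower with dHLH included Insig1, Pmvk and Scd1, which it had raised in aC3. YUMM2.1-dHLH against YUMM2.1-EV gave 1 member higher and 5 lower (6.51% and 6.72% of all genes), and the median of the members was -0.35. In either direction 17.1% of the tested members and 13.2% of all genes were called. The count in either direction is thus near the share over all genes and is not read as a result about the members. Insig1 was at 30.3 and 32.3 CPM with dHLH and 69.8 and 59.7 with EV (-1.04 ± 0.15, adjusted p = 0.00679). Insig2 moved the other way, at 37 and 43.4 against 24.2 and 17.8 CPM (0.94 ± 0.21, adjusted p = 0.0291). The 2 Insig paralogues, which both retain Scap, thus lay on opposite sides of EV, with no overlap of the libraries in either. The call of Insig2 was lost without YUMM2.1-dHLH replicate 1, YUMM2.1-dHLH replicate 2 or YUMM2.1-EV replicate 2, whereas that of Insig1 held without any 1 of the 4 libraries. Elovl6 was at 19.1 and 17.1 CPM with dHLH and 47.1 and 38.3 with EV (-1.23 ± 0.20, adjusted p = 0.0111). Scd1 was at 128 and 119.5 against 276 and 215 CPM (-0.98 ± 0.19, adjusted p = 0.0176). Mylip was at 1.89 and 1.55 against 8.88 and 5.83 CPM (-2.08 ± 0.35, adjusted p = 0.013), and Pmvk was the fifth lower member (-0.80 ± 0.14, adjusted p = 0.0153). No gene of the 11 from squalene to cholesterol was called. With the replicate number as a block, 20 members were called, 4 higher and 16 lower. The shares of all genes given above belong to the fit without a block. Counts of members under other settings, here and below, are printed without such a share and are not read against one.

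Several members had large differences that did not pass the test and wide gaps between replicates. Srebf1 was at 21.2 and 3.45 CPM with dHLH and 90.1 and 22.7 with EV (-2.17 ± 0.86, adjusted p = 0.149), and the lower EV library lay next to the higher dHLH library, while each dHLH library lay below the EV library of its own number. Abca1, which loads cellular cholesterol onto lipoproteins, was at 23.3 and 18.1 against 7.31 and 11.9 CPM (1.12 ± 0.42, adjusted p = 0.134). Acss2 was at 19.5 and 13.8 against 39.7 and 27.4 (-1.01 ± 0.27, adjusted p = 0.0553). Srebf1 and Abca1 passed the test in the fit with the replicate block, which treats equal numbers as pairs. With EV replicate 2 and WT replicate 1 left out, 10 members were called, 2 higher and 8 lower, and with their labels exchanged 19, 3 higher and 16 lower. Insig1, Elovl6, Scd1, Pmvk and Mylip were called lower in both of these settings, as were Srebf1, Acss2 and Scd2, and Abca1 and Tm7sf2 were called higher in both. Insig2 was called with the labels exchanged and not with both libraries left out. With the labels exchanged the log2 fold change was -2.56 for Srebf1 (adjusted p = 0.0108), 1.64 for Abca1 (adjusted p = 8.50e-04) and -1.24 for Acss2 (adjusted p = 0.00106). As labelled, the count of 6 was 2 without YUMM2.1-dHLH replicate 1 and 2 without YUMM2.1-EV replicate 1. The summed melanocytic markers, mostly Sox10, were at 81.4 and 94.1 CPM with dHLH and at 516 and 498 with EV, with Mlana, Tyrp1 and Dct at 0 in all of these libraries, and their part was not tested.

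WT in YUMM2.1 gave 0 members called against EV, and 0% of all genes were called, with 1 member at an unadjusted p under 0.05. DESeq2 called 0 members too, and the count was 0 with both libraries left out and with their labels exchanged. Elovl6, as an example, was at 47.4 and 36.1 CPM with WT and 47.1 and 38.3 with EV. In the cells with shNC, described below, WT against EV gave 21 members called, with 22.3% of all genes. The difference between the WT effects with and without shNC was not tested. Without a hairpin, WT against dHLH gave 5 members higher and 1 lower (6.6% and 6.44% of all genes). Insig1 (1.03), Pmvk (0.79), Elovl6 (1.20), Scd1 (0.96) and Mylip (1.56) were higher with WT and Insig2 (-0.81) lower, all as log2 fold changes. In either direction 17.1% of the tested members and 13% of all genes were called, and this count too is not read as a result about the members. This comparison shares the dHLH libraries with the one against EV. Its count was 2 without YUMM2.1-dHLH replicate 1, 0 without YUMM2.1-WT replicate 1 and 3 without YUMM2.1-WT replicate 2, and it was 3 with both libraries left out, 9 with their labels exchanged and 18 with the replicate block. The call of Insig2 was lost without any 1 of the 4 libraries and with both libraries left out.

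The difference between the dHLH effects in aC3 and in YUMM2.1 was tested itself, with separate EV controls in each. The effect was higher in aC3 for 13 members and lower for 2, against 6.55% and 5% of all genes, and the median difference over the members was 0.44 on the log2 scale. For Acss2 the difference was 1.77 ± 0.33 (95% interval 1.13 to 2.42, adjusted p = 3.91e-04). It was 1.59 ± 0.18 for Scd1 (adjusted p = 3.22e-07), 1.55 ± 0.23 for Pmvk (adjusted p = 2.12e-05) and 1.55 ± 0.19 for Insig1 (adjusted p = 1.16e-06). Scd1, Pmvk and Insig1 had passed the test in both backgrounds, higher with dHLH in the Bmal1-null clone and lower with it in the parent line, while Acss2 had passed it in the clone. Mylip differed by 1.69 ± 0.43 (adjusted p = 0.00872), and Abca1 the other way by -1.69 ± 0.46 (adjusted p = 0.0144). Insig2 was the second member with a lower effect in aC3 (-0.96 ± 0.21, adjusted p = 0.00246). The fatty acid arm gave 5 of 9 members, Acss2, Acly, Fasn, Elovl6 and Scd1, at 1.01 to 1.77, and the 11 genes from squalene to cholesterol gave 2, Nsdhl and Dhcr7. The count of 15 was 22 with the YUMM2.1 labels exchanged and 16 with both libraries left out. The difference between the WT effects passed the test for 0 members as labelled (0.126% of all genes higher in aC3 and 0.0421% lower, with 3 members at an unadjusted p under 0.05 and 0 by DESeq2), whereas 6 members were called with the labels exchanged and 1 with both libraries left out.

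**Figure D3:**
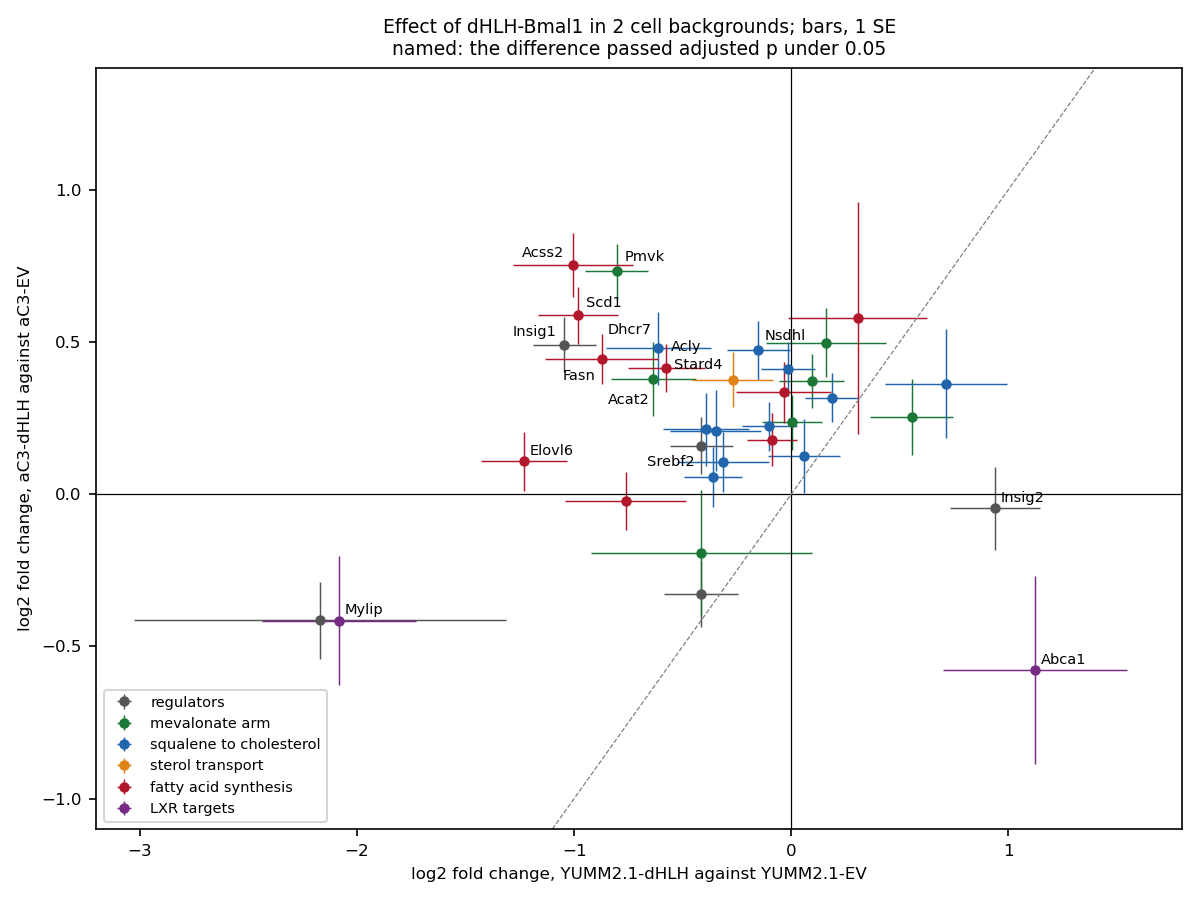
Log2 fold change of dHLH against EV in YUMM2.1 (horizontal axis) and in aC3 (vertical axis) for the 35 tested members, with bars of 1 SE and the dashed line of equal effects. The 15 named genes, whose difference passed the test, include 13 above the line and Insig2 and Abca1 below it.

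In YUMM1.7 no member passed the test with either construct. WT against EV and dHLH against EV gave 0 members called each, against 0.0434% and 0.0941% of all genes higher and lower with WT and 0.21% and 0.42% with dHLH, where 0.63% were called in either direction. At an unadjusted p under 0.05 there were 6 and 4 members, and DESeq2 called 0 in both. The medians of the members were 0.01 and -0.02. Insig1 was at 36.7 and 35.6 CPM with EV, 30.8 and 33.5 with WT and 31.7 and 32.3 with dHLH, and Scd1 at 169 and 147, 171 and 171 and 164 and 147. Without YUMM1.7-WT replicate 1, 1 member was called with WT. Set against each other, WT and dHLH differed in 3 members, with 2 higher and 1 lower with WT (1.49% and 1.08% of all genes, 2.57% in either direction). Idi1, which isomerizes isopentenyl diphosphate, was at 20.1 and 20.5 CPM with WT and 13.9 and 11.3 with dHLH (0.70 ± 0.15, adjusted p = 0.0204). Scd2 differed by 0.19 ± 0.05 (adjusted p = 0.0498) and Fasn, fatty acid synthase, by -0.25 ± 0.06 (adjusted p = 0.0336). This count was 0 without YUMM1.7-dHLH replicate 2, 1 without YUMM1.7-WT replicate 1 and 0 without YUMM1.7-WT replicate 2.

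The dHLH effect differed between YUMM1.7 and YUMM2.1 for 9 members, with 6 higher and 3 lower in YUMM1.7 (4.04% and 5.38% of all genes). Mylip had the largest of these differences, 2.43 ± 0.44 (adjusted p = 4.38e-04). Acss2 (1.37 ± 0.38, adjusted p = 0.0212), Elovl6 (1.28 ± 0.23, adjusted p = 3.33e-04), Scd1, Acly and Insig1 also had a higher effect in YUMM1.7. Abca1 (-1.32 ± 0.43, adjusted p = 0.0497), Insig2 (-1.06 ± 0.22, adjusted p = 0.00149) and Mvk had a lower one. In both tests of the difference the YUMM2.1 libraries are the same, so the 2 results are not independent. The count of 9 was 12 with the YUMM2.1 labels exchanged and 11 with both libraries left out, and Mylip, Acss2, Elovl6, Abca1 and Insig2 were called in both settings.

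Of the 19 comparisons within an experiment, the 2 with the most members called were those of the constructs against EV in YUMM2.1 cells with the control hairpin. WT shNC against EV shNC gave 4 members higher and 17 lower, against 11.7% and 10.6% of all genes. With dHLH shNC there were 3 higher and 16 lower, against 13.9% and 12.5%. The medians of the members were -0.39 and -0.40. Both comparisons use the same 2 EV shNC libraries.

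Among regulators, Srebf1 was at 5.03 and 2.97 CPM in WT shNC, 7.64 and 6.33 in dHLH shNC and 25 and 16.8 in EV shNC (-2.39 ± 0.60, adjusted p = 0.0079, and -1.56 ± 0.56, adjusted p = 0.0473). Its call with dHLH was lost with DESeq2, with the replicate block and without any 1 of the 4 libraries, and that with WT without YUMM2.1-EV shNC replicate 1 or YUMM2.1-WT shNC replicate 2. Insig1 was at 43.7 and 51.2 and 44.9 and 40.7 CPM against 72.8 and 59.9 (-0.48 and -0.62 as log2 fold changes). Srebf2, Scap and Insig2 were not called. In the fatty acid arm, Elovl6 was at 14.6 and 14.7 CPM in WT shNC, 18.1 and 15.3 in dHLH shNC and 40.6 and 42.2 in EV shNC (-1.49 ± 0.16, adjusted p = 2.78e-06, and -1.29 ± 0.16, adjusted p = 7.21e-06). Fasn was at 214 and 241 and 162 and 163 CPM against 394 and 379 (-0.76 ± 0.11, adjusted p = 5.82e-05, and -1.24 ± 0.11, adjusted p = 1.40e-07). Each construct thus had Fasn and Elovl6 below both EV shNC libraries, as it had Acss2 (-1.12 and -1.05) and Acly, ATP citrate lyase (-0.58 and -0.79). Scd2 was called lower with WT (-0.63) and Scd1 with dHLH (-0.42). Fads1, a desaturase of polyunsaturated fatty acids, was called higher with both (0.41 and 0.38). Fads2, another such desaturase, was at 8.3 and 7.85 and 7.36 and 6.65 CPM against 5.8 and 4.82, above both EV shNC libraries and not called.

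In the sterol arms, Dhcr7 was at 6.66 and 9.39 CPM in WT shNC, 11 and 8.92 in dHLH shNC and 28.4 and 23.9 in EV shNC (-1.69 ± 0.24, adjusted p = 5.91e-05, and -1.37 ± 0.23, adjusted p = 2.41e-04). Tm7sf2 went the other way, at 101 and 105 and 73.2 and 105 CPM against 23.3 and 32.5 (1.88 ± 0.29, adjusted p = 1.20e-04, and 1.67 ± 0.29, adjusted p = 2.68e-04). These 2 reductases of sterol synthesis stood on opposite sides of EV shNC in all 4 construct libraries. Acat2, Hmgcs1, Pmvk, Fdps, Sqle and Cyp51 were lower with both constructs, from -1.06 (Pmvk, dHLH) to -0.34 (Hmgcs1, dHLH). Mvd was higher with WT (0.84, adjusted p = 0.00727), Msmo1, Hsd17b7 and Sc5d were lower with WT, and Lss and Ebp lower with dHLH. Of the LXR targets, Abca1 was at 41.1 and 37.7 CPM in WT shNC, 32.5 and 25.8 in dHLH shNC and 12.5 and 13 in EV shNC (1.63 ± 0.19, adjusted p = 7.44e-06, and 1.21 ± 0.19, adjusted p = 1.17e-04), and Mylip was not called. Srebf1, which LXR also raises, and Abca1 therefore lay on opposite sides of EV shNC. The melanocytic markers summed to 346 and 349 CPM in EV shNC, 122 and 119 in WT shNC and 41.3 and 44.3 in dHLH shNC, mostly Sox10, with Mlana and Tyrp1 at 0. The 3 endothelial markers summed to 10.1 and 7.96 CPM in EV shNC, 21.5 and 20.9 in WT shNC and 14.5 and 16.5 in dHLH shNC. The part of either list was not tested. The count of 21 with WT was 13 without YUMM2.1-WT shNC replicate 2. The count of 19 with dHLH was 12 without YUMM2.1-dHLH shNC replicate 2 and 11 without YUMM2.1-EV shNC replicate 1.

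WT shNC against dHLH shNC gave 2 members higher and 1 lower (1.08% and 0.828% of all genes, 1.91% in either direction). Acat2, which joins 2 acetyl-CoA at the start of the mevalonate arm, was at 103 and 112 against 78.5 and 76.4 CPM (0.47 ± 0.11, adjusted p = 0.0343), and Fasn differed by 0.48 ± 0.11 (adjusted p = 0.0275). Sc5d, a sterol desaturase, was lower with WT (-0.59 ± 0.14, adjusted p = 0.0331). This count was 0 without YUMM2.1-dHLH shNC replicate 1, YUMM2.1-dHLH shNC replicate 2, YUMM2.1-WT shNC replicate 1 or YUMM2.1-WT shNC replicate 2. The dHLH effect with shNC set against the dHLH effect without a hairpin differed for 1 member, Fdps (0.722% of all genes higher and 1.1% lower), by -0.53 ± 0.14 (adjusted p = 0.0453), and this call was lost without YUMM2.1-dHLH replicate 2, without either YUMM2.1-EV library, without any of the 4 shNC libraries, with DESeq2's size factors and with no filter on low counts. It was also lost with the labels exchanged and with both libraries left out. In those settings Scd1 was called instead, higher with shNC by 0.73 (adjusted p = 0.00183) and 0.74 (adjusted p = 0.0123).

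**Figure D4:**
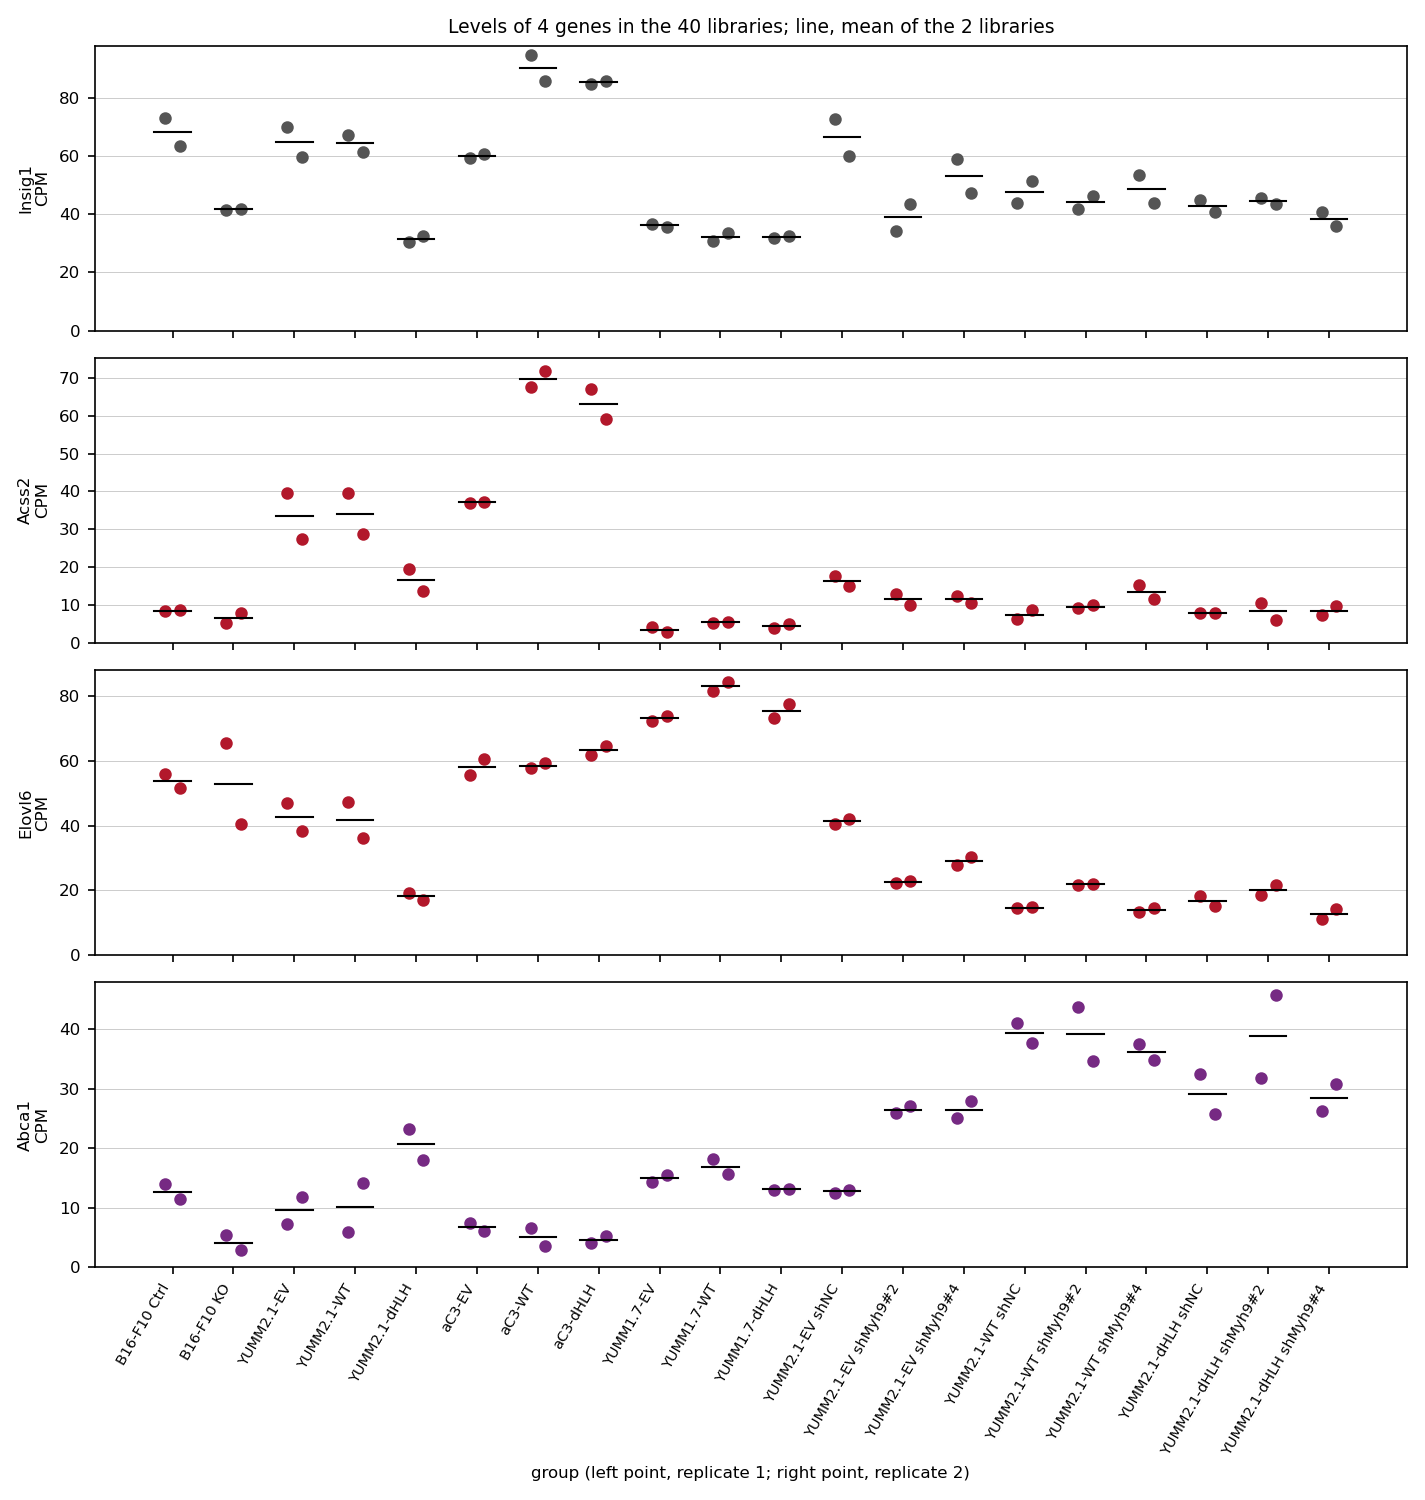
CPM of Insig1, Acss2, Elovl6 and Abca1 in the 40 libraries, 2 points for each group with a line at their mean and each axis starting at 0. Insig1 and Acss2 are highest in aC3-WT, at 90.1 and 69.7 CPM on average, Elovl6 is highest in the YUMM1.7 groups, and Abca1 is highest in the construct groups with a hairpin.

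With the stronger Myh9 hairpin, sterol and fatty acid genes fell in EV cells. EV shMyh9#2 against EV shNC gave 1 member higher and 7 lower (4.2% and 2.46% of all genes), with a median of -0.37. Fdps was at 119 and 132 CPM against 206 and 205 (-0.71 ± 0.10, adjusted p = 2.70e-04). Elovl6 was at 22.3 and 22.9 against 40.6 and 42.2 (-0.87 ± 0.15, adjusted p = 0.00203), and Insig1 at 34.3 and 43.5 against 72.8 and 59.9 (-0.77 ± 0.16, adjusted p = 0.00722). None of these libraries overlapped between the groups. Hmgcs1 was at 137 and 140.3 against 201 and 210.3 CPM (-0.57 ± 0.11, adjusted p = 0.00299), and Cyp51, lanosterol demethylase, Sc5d and Acly fell by 0.46, 0.48 and 0.38 on the log2 scale. The melanocytic markers summed to 217 and 205 CPM in EV shMyh9#2 and 346 and 349 in EV shNC, and the endothelial markers to 18.5 and 16.7 against 10.1 and 7.96. The part of either list was not tested. Abca1 rose, at 25.8 and 27.1 against 12.5 and 13 CPM (1.06 ± 0.19, adjusted p = 0.00256). It also rose with shMyh9#4, at 25 and 27.9 CPM (1.05 ± 0.19, adjusted p = 0.005), where it was the single member called (1.45% of all genes higher, 0.256% lower). The 2 hairpins share the EV shNC libraries. Set against each other in EV, shMyh9#2 gave lower Fdps (-0.51 ± 0.10, adjusted p = 0.0318) and Fads1 (-0.63 ± 0.12, adjusted p = 0.0262) than shMyh9#4, 2 lower and 0 higher (0.249% and 0.242% of all genes). The count of 8 with shMyh9#2 was 4 and 5 without YUMM2.1-EV shMyh9#2 replicate 1 and replicate 2 and 4 and 5 without YUMM2.1-EV shNC replicate 1 and replicate 2. Abca1 with shMyh9#4 was not called without YUMM2.1-EV shMyh9#4 replicate 2 or without either YUMM2.1-EV shNC library, and the difference between the hairpins fell to 0 members without either YUMM2.1-EV shMyh9#2 library or YUMM2.1-EV shMyh9#4 replicate 2 and to 1 without YUMM2.1-EV shNC replicate 1.

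In WT cells shMyh9#2 gave 2 members higher and 1 lower (2.35% and 2.41% of all genes, 4.76% in either direction). Fads1 was at 100.3 and 96.5 CPM against 192 and 188 (-0.96 ± 0.12, adjusted p = 1.08e-04). Sc5d (0.58 ± 0.14, adjusted p = 0.0202) and Elovl6 (0.57 ± 0.16, adjusted p = 0.0465) rose. The melanocytic markers summed to 56.5 and 59.0 CPM in WT shMyh9#2 and 122 and 119 in WT shNC, and their part was not tested. In dHLH cells shMyh9#2 gave 0 higher and 1 lower (0.296% and 0.263%), again Fads1, at 129 and 117 against 192 and 178 CPM (-0.60 ± 0.12, adjusted p = 0.0332). With shMyh9#4, WT cells had 0 members called (0.0876% of all genes higher, 0.148% lower), with 5 at an unadjusted p under 0.05 and 1 by DESeq2. The WT count with shMyh9#2 was 1 without each of YUMM2.1-WT shMyh9#2 replicate 1, YUMM2.1-WT shMyh9#2 replicate 2, YUMM2.1-WT shNC replicate 1 and YUMM2.1-WT shNC replicate 2, and Fads1 in dHLH cells was not called without any of its 4 libraries, YUMM2.1-dHLH shMyh9#2 replicate 1 and 2 and YUMM2.1-dHLH shNC replicate 1 and 2.

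The effect of shMyh9#2 itself differed between WT and EV cells for 8 members, with 6 higher and 2 lower in WT (1.75% and 3.43% of all genes). Elovl6 differed by 1.44 ± 0.22 (adjusted p = 7.40e-04), Dhcr7 by 1.19 ± 0.33 (adjusted p = 0.0437) and Sc5d by 1.05 ± 0.19 (adjusted p = 0.00386), with Fdps, Sqle and Cyp51 in the same direction. Tm7sf2 (-1.77 ± 0.39, adjusted p = 0.014) and Abca1 (-1.07 ± 0.26, adjusted p = 0.023) differed the other way. Between dHLH and EV cells it differed for 3 members, all higher in dHLH (1.1% of all genes higher, 2.2% lower), namely Elovl6 (1.14 ± 0.22, adjusted p = 0.00754), Fdps (0.82 ± 0.14, adjusted p = 0.00332) and Acly (0.61 ± 0.15, adjusted p = 0.0368). The EV libraries are the same in both differences. The count of 8 was 4 and 5 without YUMM2.1-EV shMyh9#2 replicate 1 and replicate 2, 3 without YUMM2.1-EV shNC replicate 1, 4 without YUMM2.1-WT shMyh9#2 replicate 2 and 4 and 5 without YUMM2.1-WT shNC replicate 1 and replicate 2, and the count of 3 was 1 without YUMM2.1-dHLH shNC replicate 2.

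The dHLH shMyh9#4 libraries, at 3643332 and 6001340 counts, had 5 members higher and 4 lower than dHLH shNC (6.28% and 8.86% of all genes). Srebf1 was at 2.54 and 0.174 CPM against 7.64 and 6.33 (-2.62 ± 0.86, adjusted p = 0.047), from 9 counts in replicate 1 and 1 count in replicate 2. Scap was at 24 and 27.8 against 48.1 and 51.6 CPM (-0.91 ± 0.20, adjusted p = 0.00663), and Scd2 at 287 and 192 against 573 and 492 (-1.14 ± 0.22, adjusted p = 0.00295). Both an SREBP gene and its escort were below dHLH shNC in each library, and Scap was called in no other comparison within an experiment. The lower calls, Srebf1 and Scap among them, did not hold without YUMM2.1-dHLH shMyh9#4 replicate 2. Pmvk was higher, at 33.6 and 50.4 against 21.5 and 23.2 CPM (0.95 ± 0.22, adjusted p = 0.00763), as was Mvd, at 56.1 and 80.1 against 38.8 and 42 (0.79 ± 0.21, adjusted p = 0.0163). Acat2, Fasn and Scd1 were also higher and Hsd17b7 lower. The melanocytic markers summed to 73.6 and 68.8 CPM against 41.3 and 44.3, and their part was not tested. The effect of shMyh9#4 differed between dHLH and EV cells for 6 members, 3 higher and 3 lower in dHLH (3.05% and 5.46% of all genes), led by Pmvk (1.29 ± 0.30, adjusted p = 0.0135) and Abca1 (-1.07 ± 0.27, adjusted p = 0.0208). Between WT and EV cells it differed for 1 member, Abca1 (-1.18 ± 0.26, adjusted p = 0.0416), against 0.114% of all genes higher in WT and 0.626% lower. The count of 9 was 1 without YUMM2.1-dHLH shMyh9#4 replicate 2 and 4 without YUMM2.1-dHLH shNC replicate 1. The count of 6 was 2 without YUMM2.1-dHLH shMyh9#4 replicate 2, 2 without YUMM2.1-dHLH shNC replicate 1, 3 without YUMM2.1-EV shMyh9#4 replicate 2 and 3 and 2 without YUMM2.1-EV shNC replicate 1 and replicate 2, and the call of Abca1 between WT and EV was lost without each of these: YUMM2.1-EV shMyh9#4 replicate 2, either YUMM2.1-EV shNC library, either YUMM2.1-WT shMyh9#4 library and either YUMM2.1-WT shNC library.

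Knockout of Bmal1 in B16-F10 gave 0 members called (0.22% of all genes in each direction), with 7 at an unadjusted p under 0.05 and 1 by DESeq2. The median of the members was -0.17, and 23 of the 35 had a negative log2 fold change. The 2 KO libraries disagreed strongly on several of these genes. Tm7sf2 was at 8.61 and 62.1 CPM in KO replicates 1 and 2 and at 10.4 and 11.4 in Ctrl. Idi1 was at 23.4 and 2.69 against 20.2 and 15, Srebf1 at 21.8 and 3.93 against 26.4 and 18.8 and Fasn at 352 and 811 against 372 and 387. In each of these genes 1 KO library lay near the Ctrl libraries and the other far from them. Insig1 and Stard4 had closer KO libraries. Insig1 was at 41.6 and 41.8 CPM in KO and 72.8 and 63.3 in Ctrl (-0.71 ± 0.17, adjusted p = 0.223) and Stard4 at 30.7 and 27.2 against 39.1 and 44.1 (-0.53 ± 0.19, adjusted p = 0.38). Abca1 was at 5.46 and 2.83 against 13.9 and 11.5 (-1.62 ± 0.37, adjusted p = 0.214), with a log2 ratio of KO replicate 2 to replicate 1 of -0.84. None of the 3 was called. With either KO library left out, members were called in both directions, the lone KO library then being assumed to vary as the Ctrl libraries do. These calls were not set beside the share of all genes and are not read as a result about the members. The difference between the KO replicates was correlated with that between the YUMM2.1-dHLH replicates (r = 0.717 across 8936 genes), the YUMM2.1-EV replicates (r = 0.660) and, less closely, the YUMM2.1-WT replicates (r = 0.304), a description over genes that are not independent, and what these libraries share was not tested.

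**Figure D5:**
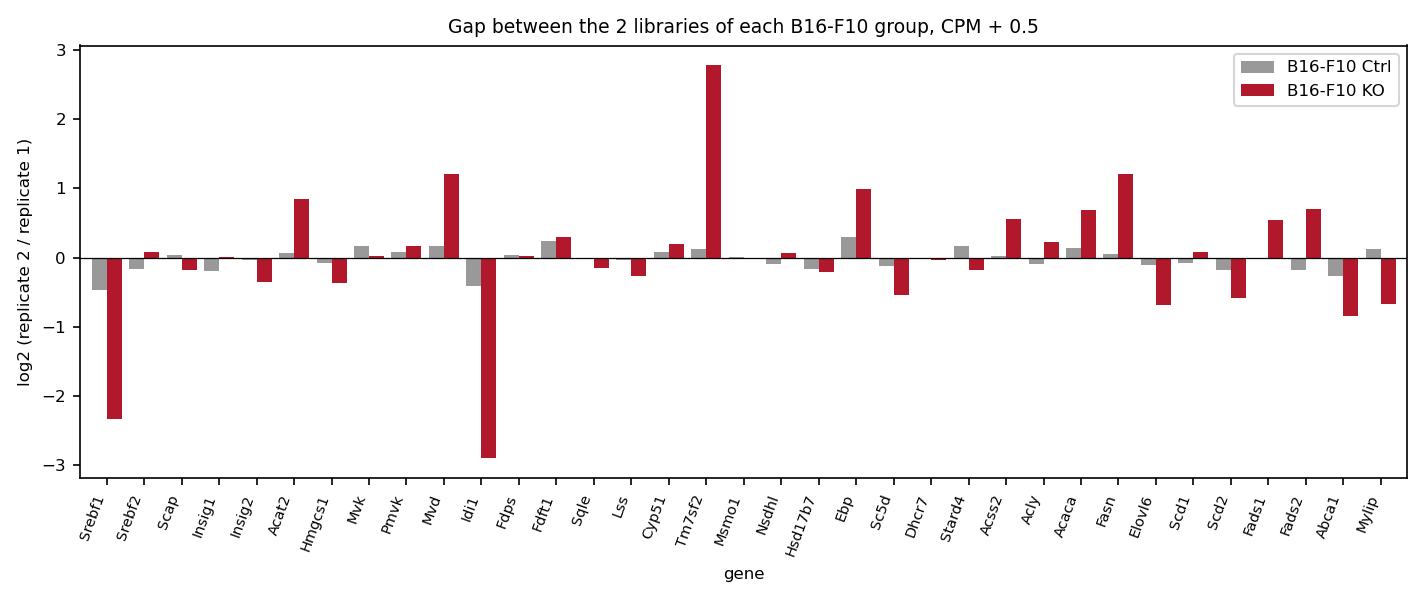
Log2 ratio of replicate 2 to replicate 1 in CPM for the 35 tested members in B16-F10 Ctrl (grey) and KO (red), with 0.5 CPM added. The widest Ctrl bars are those of Srebf1 and Idi1, whereas the KO bars reach 2.78 for Tm7sf2 and -2.91 for Idi1.

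Across the 19 comparisons within an experiment, 4 members were called in none, Srebf2, Mvk, Fads2 and Abcg1, and 16 were called in both directions. Insig1, the most often called regulator, was higher in 3 and lower in 4. Srebf1 was lower in 4 and higher in none, and Abca1 higher in 4 and lower in none. Tm7sf2 and Mvd were called 3 times each, always higher, and Fdps and Cyp51 3 times each, always lower. These comparisons share control libraries within each experiment, so the counts are not independent. WT against dHLH also takes the dHLH libraries of the comparison with EV with the sign turned. Insig2 and Mylip were called in both directions only through YUMM2.1-dHLH against EV and YUMM2.1-WT against dHLH. A higher call of Insig1 is also from YUMM2.1-WT against dHLH. The spread of the group means differed widely between members. Srebf1 ran from 1.36 CPM in YUMM2.1-dHLH shMyh9#4 to 67.0 in aC3-WT and Acss2 from 3.45 in YUMM1.7-EV to 69.7 in aC3-WT, whereas Acaca, acetyl-CoA carboxylase, Hmgcs1, Msmo1 and Cyp51 stayed within 1.60-fold, 1.67-fold, 1.71-fold and 1.78-fold over the 20 groups. The wide range of Srebf1 went with a wide gap between replicates. The median gap between the 2 libraries of a group was 0.518 on the log2 scale for Srebf1, the largest of the members, against 0.0384 for Msmo1 and 0.0821 for Cyp51, and its largest gap was 2.46 in YUMM2.1-dHLH.

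A list of 28 other genes of lipid metabolism, among them the acyl-CoA synthetases Acsl1, Acsl3 and Acsl4 and the acyltransferase Dgat2, was counted beside the members. In aC3, 3 of its 25 tested genes were higher and 2 lower with WT (4.92% and 6.28% of all genes). With dHLH 3 were higher and 1 lower (4.79% and 6.09%). Acsl3 and the phosphatase Lpin1 were among the higher with both constructs. In YUMM2.1, dHLH gave 2 higher and 5 lower of 25 (6.51% and 6.72%). With shNC, 2 of 26 were higher and 8 lower with WT (11.7% and 10.6%), and 4 higher and 7 lower with dHLH (13.9% and 12.5%). Tmem97, Acsl3, Acsl4, Lpin1, Mid1ip1, Dgat2 and Lpcat3 were lower with both. EV shMyh9#2 gave 0 higher and 1 lower (4.2% and 2.46%), Acsl4. The median log2 fold change of this list lay between -0.08 and 0.09 in these 6 comparisons, and with WT and shNC it was positive (0.09) although more of the called genes were lower than higher. Its genes are named by call, with no values, since they were listed to be counted.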

How the data were processed

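RNA of 40 cultured melanoma libraries was sequenced by QuantSeq 3′ mRNA-seq from 100 ng of RNA with 75 bp reads. The authors aligned reads to mm10 with bowtie2 and deposited RSEM estimated counts per Ensembl gene as whole numbers. The annotation release and strand setting are not given in the sources used here. Because strand is not stated, reads of the 19 members that overlap another annotated gene may be shared. Symbols came from GENCODE (99.6% of identifiers), and groups from the labels. Counts were TMM-scaled, filtered with filterByExpr and tested with edgeR 4.0.16 (quasi-likelihood, two-sided, Benjamini-Hochberg over all genes, R 4.3.3), with one fit for each experiment and one of all 40 libraries for lines and for differences between effects. Alternatives used DESeq2 1.42.0, other filters, a replicate block, exchanged labels and left-out libraries. The script was tested on simulated data. Named in each comparison were the called members of largest fold change, up to 5, where counts averaged 10 or more, together with regulators and LXR targets. Other names were chosen after their values were seen. Of the other lipid genes listed, 1 is not reported here and was left out of the counts. The study calls the 2 samples of a group biological replicates, and shared replicate numbers were not established as pairs. The members, lists and tests were chosen with earlier results of these data known. Totals of 3643332 to 22970049 counts limit the precision of low genes such as Mylip and Fads2.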

Additional observations from a re-analysis of the deposited data

Results flagged for a closer look

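These differences between effects in 2 cell backgrounds passed the test of the difference itself, with edgeR's quasi-likelihood test. The dHLH effect differed between aC3 and YUMM2.1 for 15 members, of which Acss2 (1.77 on the log2 scale, aC3 minus YUMM2.1), Mylip (1.69), Scd1 (1.59), Pmvk (1.55) and Abca1 (-1.69) had the widest differences under the naming rule. It differed between YUMM1.7 and YUMM2.1 for 9 members, led by Mylip (2.43, YUMM1.7 minus YUMM2.1), Acss2 (1.37), Abca1 (-1.32), Elovl6 (1.28) and Insig2 (-1.06). With and without the control hairpin in YUMM2.1 it differed for 1 member, Fdps (-0.53). That call was lost without either YUMM2.1-EV library, with the labels of YUMM2.1-EV replicate 2 and YUMM2.1-WT replicate 1 exchanged and with both of these left out, and in the last 2 settings Scd1 was called in its place (0.73 and 0.74).

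The shMyh9#2 effect differed between WT and EV cells for 8 members, led by Tm7sf2 (-1.77, WT minus EV), Elovl6 (1.44), Dhcr7 (1.19), Abca1 (-1.07) and Sc5d (1.05), and between dHLH and EV cells for 3, Elovl6 (1.14), Fdps (0.82) and Acly (0.61). The shMyh9#4 effect differed between WT and EV cells for 1 member, Abca1 (-1.18), and between dHLH and EV cells for 6, led by Pmvk (1.29), Abca1 (-1.07), Scd2 (-1.03), Scap (-0.90) and Acat2 (0.80).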

How the results depend on the processing

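No named value that was called as reported or under another setting changed sign between them. Of the named values, 2095 kept their side of the threshold, 236 lost their call and 62 gained one. Values called in neither count among the 2095 whatever their sign. With DESeq2's Wald test the count of members called became 1 in B16-F10 KO against Ctrl, 1 in aC3-WT against aC3-dHLH, 11 in YUMM2.1-dHLH against YUMM2.1-EV, 1 in YUMM2.1-WT shMyh9#4 against YUMM2.1-WT shNC, 2 in dHLH effect YUMM2.1 shNC minus YUMM2.1, 5 in shMyh9#2 effect dHLH minus EV and 4 in shMyh9#2 minus shMyh9#4 in EV. With DESeq2's size factors it became 0 in dHLH effect YUMM2.1 shNC minus YUMM2.1. With no filter on low counts it became 1 in B16-F10 KO against Ctrl, 2 in aC3-WT against aC3-dHLH, 14 in YUMM2.1-dHLH against YUMM2.1-EV, 15 in YUMM2.1-WT against YUMM2.1-dHLH, 2 in YUMM1.7-WT against YUMM1.7-EV, 1 in YUMM1.7-dHLH against YUMM1.7-EV, 1 in YUMM2.1-WT shMyh9#4 against YUMM2.1-WT shNC, 1 in aC3-EV against YUMM2.1-EV, 13 in shMyh9#2 effect WT minus EV, 8 in shMyh9#2 effect dHLH minus EV and 5 in shMyh9#2 minus shMyh9#4 in EV. In one fit of all 40 libraries it became 10 in B16-F10 KO against Ctrl, 3 in aC3-WT against aC3-EV, 3 in aC3-dHLH against aC3-EV, 16 in YUMM2.1-dHLH against YUMM2.1-EV, 15 in YUMM2.1-WT against YUMM2.1-dHLH, 0 in YUMM1.7-WT against YUMM1.7-dHLH, 1 in YUMM2.1-WT shNC against YUMM2.1-dHLH shNC, 0 in YUMM2.1-EV shMyh9#4 against YUMM2.1-EV shNC and 4 in YUMM2.1-dHLH shMyh9#4 against YUMM2.1-dHLH shNC. With YUMM2.1-EV replicate 2 and YUMM2.1-WT replicate 1 left out it became 10 in YUMM2.1-dHLH against YUMM2.1-EV, 3 in YUMM2.1-WT against YUMM2.1-dHLH, 1 in aC3-EV against YUMM2.1-EV and 1 in WT effect aC3 minus YUMM2.1. With the labels of those 2 libraries exchanged it became 19 in YUMM2.1-dHLH against YUMM2.1-EV, 0 in aC3-EV against YUMM2.1-EV and 6 in WT effect aC3 minus YUMM2.1. The other counts stayed within 1.5 times of those reported, and a mean of at least 10 counts moved none of them. The cause was not tested. With 1 library left out in turn the count ran from 0 to 0 in aC3-WT against aC3-dHLH, YUMM2.1-WT against YUMM2.1-EV, YUMM1.7-dHLH against YUMM1.7-EV, YUMM2.1-WT shNC against YUMM2.1-dHLH shNC, YUMM2.1-WT shMyh9#4 against YUMM2.1-WT shNC, YUMM2.1-dHLH shMyh9#2 against YUMM2.1-dHLH shNC and WT effect aC3 minus YUMM2.1, from 0 to 1 in YUMM1.7-WT against YUMM1.7-EV, YUMM2.1-EV shMyh9#4 against YUMM2.1-EV shNC, dHLH effect YUMM2.1 shNC minus YUMM2.1 and shMyh9#4 effect WT minus EV, from 0 to 2 in YUMM1.7-WT against YUMM1.7-dHLH, aC3-EV against YUMM2.1-EV and shMyh9#2 minus shMyh9#4 in EV, from 0 to 4 in YUMM2.1-WT against YUMM2.1-dHLH, from 0 to 22 in B16-F10 KO against Ctrl, from 1 to 1 in YUMM2.1-WT shMyh9#2 against YUMM2.1-WT shNC, from 1 to 3 in shMyh9#2 effect dHLH minus EV, from 1 to 9 in YUMM2.1-dHLH shMyh9#4 against YUMM2.1-dHLH shNC, from 2 to 6 in shMyh9#4 effect dHLH minus EV, from 2 to 8 in YUMM2.1-dHLH against YUMM2.1-EV, from 3 to 4 in aC3-WT against aC3-EV, from 3 to 6 in shMyh9#2 effect WT minus EV, from 3 to 13 in aC3-dHLH against aC3-EV, from 4 to 5 in YUMM2.1-EV shMyh9#2 against YUMM2.1-EV shNC, from 6 to 11 in dHLH effect YUMM1.7 minus YUMM2.1, from 10 to 15 in YUMM1.7-EV against YUMM2.1-EV, from 10 to 17 in dHLH effect aC3 minus YUMM2.1, from 11 to 14 in YUMM2.1-dHLH shNC against YUMM2.1-EV shNC, from 13 to 16 in YUMM2.1-WT shNC against YUMM2.1-EV shNC and B16-F10 Ctrl against YUMM1.7-EV. With 2 libraries a group, few counts and wide gaps limit low genes such as Srebf1 most.

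The replicate block gave 1 in B16-F10 KO against Ctrl, 2 in aC3-WT against aC3-dHLH, 20 in YUMM2.1-dHLH against YUMM2.1-EV, 18 in YUMM2.1-WT against YUMM2.1-dHLH and 0 in shMyh9#4 effect WT minus EV, and changed no other count of calls by over 1.5 times. Same-numbered libraries deviated together in YUMM2.1 without a hairpin (mean r = 0.532). In YUMM1.7 the mean r was -0.06, with pairs of groups from -0.196 to 0.065. With hairpins the mean r was -0.01, but pairs of groups ran from -0.398 to 0.521, some together and some in opposition. With 2 numbers a pairing was not established.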
